A study of Mus musculus with 9 samples.

Results

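The genes described here encode the proteins of the cytosolic ribosome. They are the rows of a mouse count table whose symbol is Rpl or Rps followed by a number and at most 1 letter, together with Rplp0, Rplp1, Rplp2 and Rpsa, with pseudogene symbols left out. The rule took 81 of 43472 genes, 49 of the large subunit and 32 of the small subunit, and it used no measured value. A filter on low counts kept 79 of them, 47 large and 32 small; Rpl10l, listed at 0 reads in every library, and Rpl3l did not pass.

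The libraries came from C57BL/6J mice, with 3 of immature cartilage labelled immature chondrocytes (ImC), 3 of mature cartilage labelled mature chondrocytes (MatC) and 3 of bone labelled osteoblasts (Bone). No group carried a treatment, transgene or deletion in its labels, and neither an age nor a site in the body is named there. Per the labels' protocols the RNA was amplified for 1 round before library preparation, so reads are not independent molecules. The labels do not say that the libraries of a group came from separate animals, so a p-value here measures only the spread between these libraries, which may be technical.

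A ribosome is built from ribosomal RNA and a fixed set of proteins, most of them needed in about equal copy number. The genes of these proteins are scattered over nearly all chromosomes. Their messages belong to the most abundant in growing and secreting cells. Many begin with an uninterrupted run of pyrimidines, the terminal oligopyrimidine (TOP) start, through which growth signalling by mTOR controls their translation. Loss of a single ribosomal protein gene in mice or humans has tissue-specific effects, some of them skeletal. Rpl38 is the gene of the tail short mouse, Rpl24 that of the belly spot and tail mouse, and human RPL13 variants cause a spondyloepimetaphyseal dysplasia.

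The start sites of the members were read from RefSeq (GRCm38.p6), in which 60 of the 81 had a promoter entry. A run of at least 6 C or T bases that begins with C, starting between positions -5 and 10 from the annotated first base on the transcribed strand, was present in 28 of the 60 (46.7%). The same search found it in 16.1% of the 27025 genes with an entry and in 17.4% of the 9995 of these that were tested. TATAAA, searched on the transcribed strand from -40 to -15, was found in 0 of the 60 members and in 2.41% of all entries. A match describes letters only and was not tested as a site. The 30-base windows shown run from 10 bases before the annotated first base, and capitals mark the longest such run, which in some members is only 2 bases. The first 4 belong to members higher in Bone than in ImC that have a long run. The fifth belongs to a member that was higher and has no long run at its annotated first base. Rps26 is shown for its large difference from MatC, and Rpsa and Rpl39l are the members lower in Bone.
Rpl27a, chr7:109519185-109519214, plus strand: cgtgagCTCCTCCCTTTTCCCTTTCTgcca
Rpl39, chrX:37085203-37085232, minus strand: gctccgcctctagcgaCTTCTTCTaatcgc
Rps27, chr3:90213629-90213658, minus strand: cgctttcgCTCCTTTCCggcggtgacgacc
Rps12, chr10:23787190-23787219, minus strand: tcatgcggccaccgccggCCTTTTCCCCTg
Rpl23, chr11:97782420-97782449, minus strand: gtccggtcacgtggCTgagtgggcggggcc
Rps26, chr10:128626487-128626516, minus strand: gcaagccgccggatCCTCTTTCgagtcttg
Rpsa, chr9:120127756-120127785, plus strand: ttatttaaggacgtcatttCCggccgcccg
Rpl39l, chr16:10170218-10170247, plus strand: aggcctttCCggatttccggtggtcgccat

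Levels are given as counts per 1000000 counts (CPM) of genes outside the mitochondrial genome, because genes of the mitochondrial genome took 32.0 to 55.0% of all counts in ImC, 33.7 to 82.3% in MatC and 7.24 to 8.91% in Bone. Counts outside the mitochondrial genome ranged from 1904092 in MatC replicate 3 to 11339706 in Bone replicate 1. Among the cartilage libraries, 2 stood apart for the members. ImC replicate 3 lay more than 2-fold from the mean of the other libraries of its group for 9 of 79 members and MatC replicate 3 for 7, against 0 or 1 in each Bone library. Chondrocyte markers (9 genes) summed to 28143 to 39391 CPM in ImC and 17679 to 38494 in MatC but 581 to 1174 in Bone, and hypertrophic chondrocyte markers (5 genes) to 60.9 to 137 CPM in ImC, 3915 to 11718 in MatC and 2601 to 2767 in Bone. Osteoblast markers (7 genes) summed to 132554 to 151433 CPM in Bone, 2253 to 50423 in MatC and 997 to 1171 in ImC. The chondrocyte markers, listed for immature chondrocytes, thus set both cartilage groups apart from Bone but overlapped between ImC and MatC. What set ImC apart from MatC was its low level of hypertrophic and osteoblast markers.

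Summed over members, ribosomal protein messages took a larger share of the non-mitochondrial counts in every Bone library than in every cartilage library. The share was 10.36, 9.998 and 11.67% in ImC replicates 1 to 3, 9.925, 9.622 and 11.06% in MatC and 11.96, 13.67 and 12.08% in Bone. As means these were 10.7 ± 0.881% (SD, n = 3) in ImC, 10.2 ± 0.761% in MatC and 12.6 ± 0.952% in Bone, so that the cartilage groups differed by less than their spread. The gap between the highest cartilage and the lowest Bone library was small. Without Rpsa the shares were 9.61 to 9.71% in ImC and 8.90 to 9.81% in MatC against 11.8 to 13.5% in Bone. Every Bone library had less Rpsa than every cartilage library, so the gap had to widen and this is no check of it. Over all counts, mitochondrial genes included, the shares were 5.90 ± 0.801% in ImC, 3.84 ± 2.43% in MatC and 11.6 ± 0.962% in Bone, which follows the mitochondrial share. In bulk tissue, fewer cells of a type and less RNA per cell cannot be told apart.

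**Figure D1:**
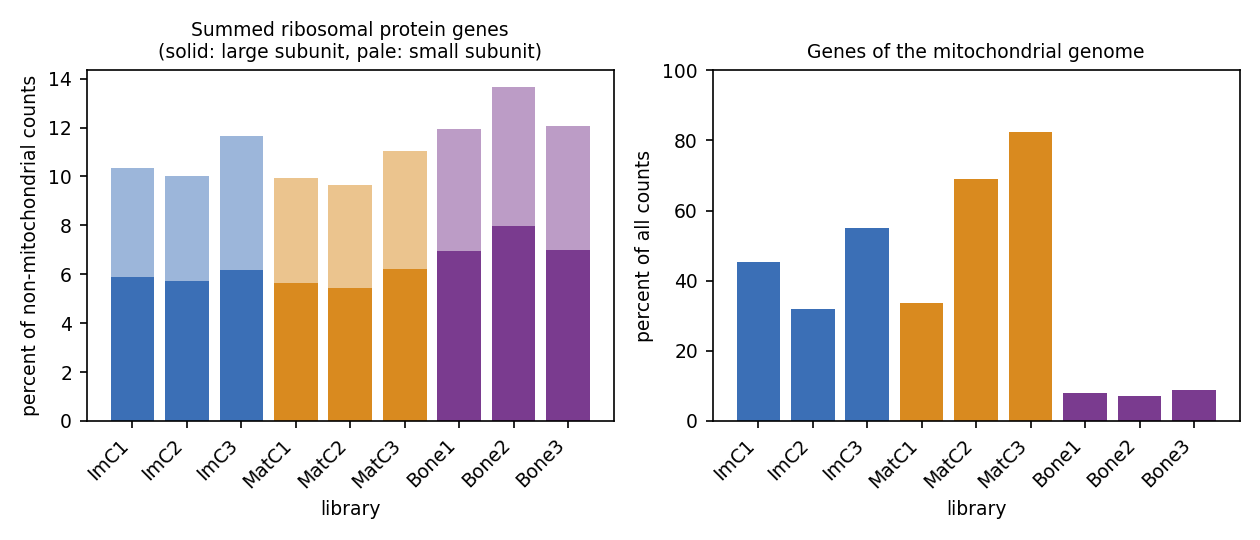
Left, summed counts of large subunit (solid) and small subunit (pale) genes as a percent of non-mitochondrial counts in each library; right, genes of the mitochondrial genome as a percent of all counts. The Bone libraries sit at 11.96 to 13.67% on the left, above the cartilage libraries at 9.622 to 11.67%, and at 7.24 to 8.91% on the right, below cartilage.

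Large subunit genes took 5.93 ± 0.213% in ImC, 5.77 ± 0.397% in MatC and 7.30 ± 0.571% in Bone, and small subunit genes 4.74 ± 0.673%, 4.44 ± 0.365% and 5.27 ± 0.382%. The ratio of large to small was 1.37 to 1.40 in Bone and 1.28 to 1.32 in MatC. In ImC it was 1.32, 1.35 and 1.12, the last in replicate 3, where Rpsa alone made up 17.7% of the member counts.

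Per coding kilobase, the members were far from equal, although most of the proteins are needed in like copy number. Over the 78 tested members with a coding length in GENCODE M21, the level averaged over the 9 libraries had a median of 2907 CPM per kilobase, with quartiles of 1414 and 3734. It lay within 2-fold of the median in 48 of the 78. Highest was Rpl41, which encodes the shortest ribosomal protein, at 46036 CPM per kilobase, followed by the stalk protein gene Rplp1 at 9999 and by Rpl39, whose protein lines the peptide exit tunnel, at 7455. The Rpl41 coding sequence is 75 bases, so a level per coding kilobase counts reads of its untranslated parts against a short length.

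Lowest of the tested members were Rpl24 at 26.9, Rpl23a at 57.7 and Rpl39l at 67.8 CPM per kilobase. Rpl24 was at 7.38 to 23.1 CPM over the 9 libraries and Rpl23a at 12.6 to 56.7 CPM. Coding bases of Rpl24 overlap other annotated genes over 83.4% of their length and those of Rpl23a over 55.3%, and all 50-base windows of both also occur in transcripts of other genes. The part of these features in the low levels was not tested. Rpl13a (97.5% overlap) was at 7309 CPM per kilobase and Rps10 (92.1%) at 1363. Across 78 members the overlap share had a correlation of -0.37 with the log2 level per coding kilobase, as a description. The overlap was 0 in 72 of the 80 members with a coding length, so this value rests on few genes, Rpl24 and Rpl23a among them. For the share of windows found in other genes the correlation was 0.15.

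Sharing of sequence with other genes was the rule among members. The median member had 91.4% of its 50-base coding windows in transcripts of at least 1 other gene, 29 of 80 had all of them, and Rpl39l and Rpl3l had none. A read from such a window can belong to a pseudogene, so the level of a single member carries that uncertainty. The 251 rows with a member symbol and a pseudogene suffix held 0.222 to 0.428% of the member counts in each library. Genes under other symbols that share windows, such as Gm10163 with Rpl21 or Rps27rt with Rps27, are not in that share. It therefore does not measure all reads that copies may take. The 66 tested members with over 50% of windows shared and the 12 with less had medians of the log2 fold change of 0.38 and 0.39 for Bone over MatC, and of 0.43 and 0.25 for Bone over ImC. All Bone libraries lay above all ImC libraries for 35 of the 66 and 4 of the 12, beside 23.1% of all genes. All Bone libraries lay above all MatC libraries for 32 of the 66 and 6 of the 12, beside 10.1% of all genes. A difference by sharing was not tested.

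**Figure D2:**
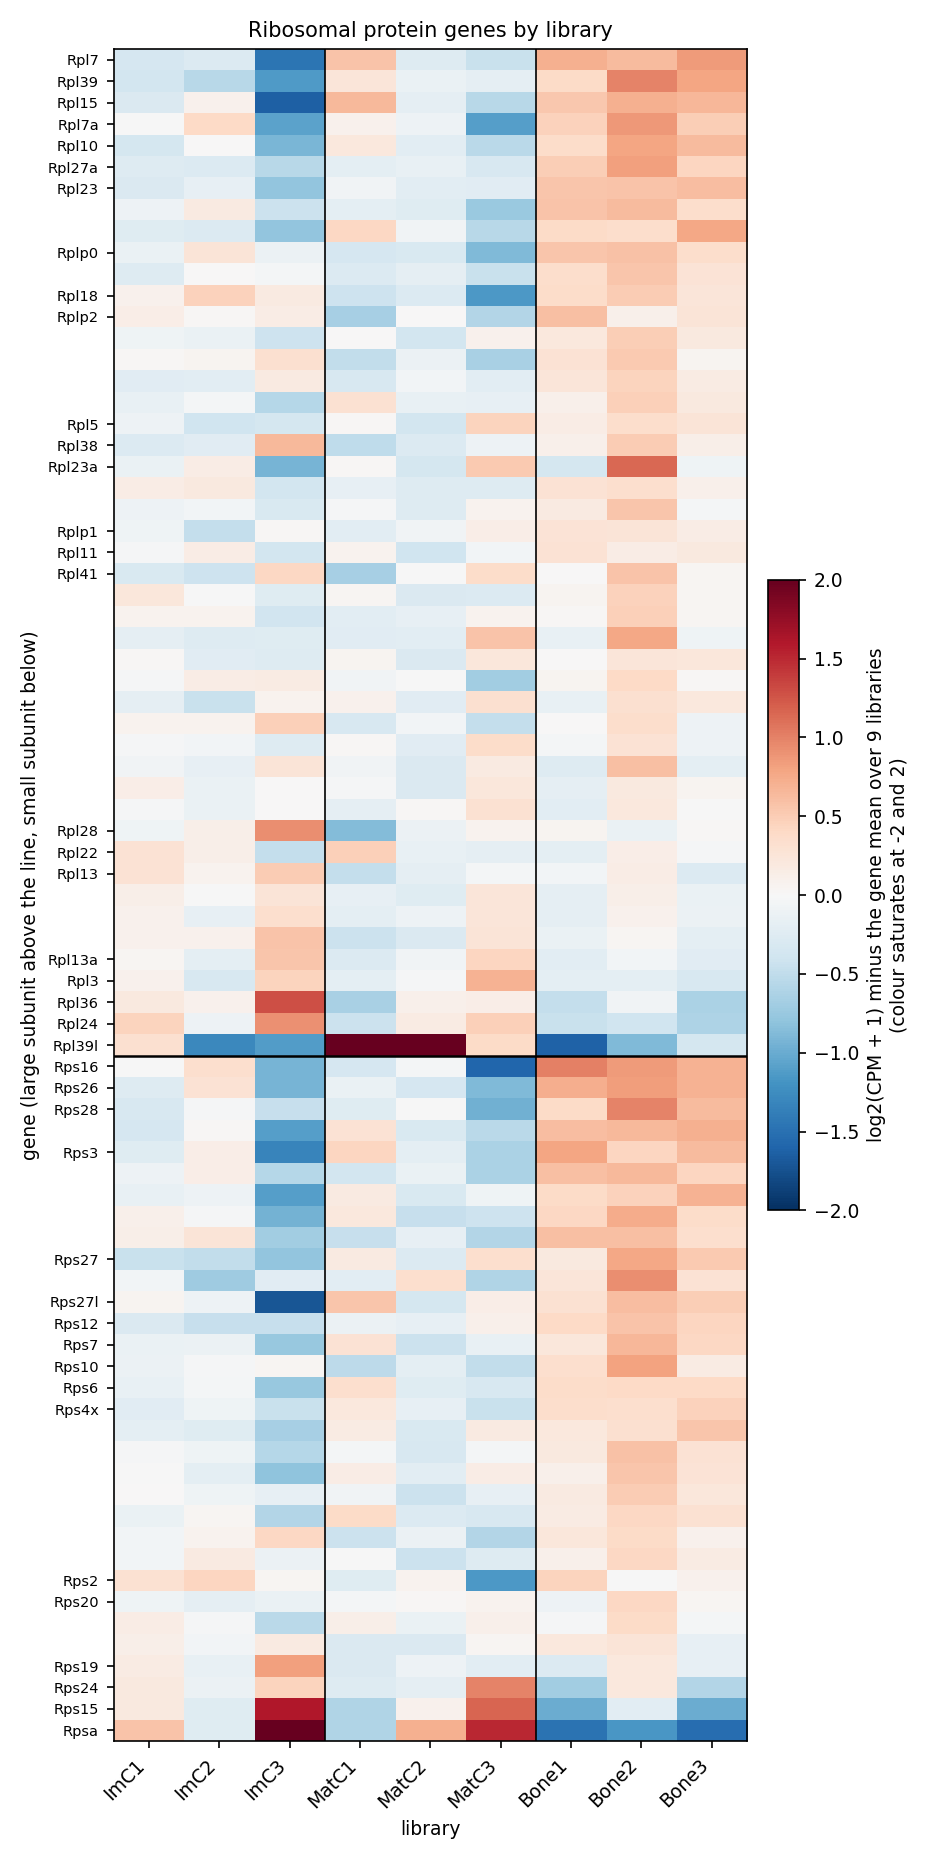
Each row is 1 of the 79 tested members and each column a library; colour is log2(CPM + 1) minus the mean of that gene over the 9 libraries, and rows are ordered within each subunit by their mean in Bone, with the genes named in the text labelled. Most rows are red in all Bone columns, Rpsa and Rps15 are blue there, and the columns of ImC replicate 3 and MatC replicate 3 differ most from their neighbours.

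Between immature and mature cartilage, ribosomal protein genes did not move as a group. Of the 79 members, 40 had a positive and 39 a negative log2 fold change of MatC over ImC, with a median of 0.01 beside 0.05 over all 14268 genes tested. edgeR's quasi-likelihood test called 0 members higher, where 5.02% of all genes were called, and 0 lower, where 2.0% were; a call here is a Benjamini-Hochberg adjusted p under 0.05 over all genes. At an unadjusted p under 0.05 it found 2 members higher and 1 lower, beside 2002 and 1426 of the 14268 genes. DESeq2 called 1 member in each direction (1.27%), where it called 9.61% of all genes higher and 5.93% lower. The groups did not overlap, higher in MatC, for 5 members (6.33%, against 11.7% of all genes) and, lower, for 8 (10.1%, against 11.7%). The median was 0.10 for the small and -0.03 for the large subunit. All but Rpl39l differed by less than 1 on the log2 scale.

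Among members averaging at least 20 CPM, which leaves out Rpl39l, those farthest above the median in this comparison were the exit tunnel protein gene Rpl39, Rpl7 and Rps27. Rps27, a zinc finger protein of the small subunit (chromosome 3, 90212522 to 90213651, minus strand in GENCODE M21), was at 191, 184 and 149 CPM in ImC and 294, 214 and 329 in MatC. Its groups did not overlap, and its log2 fold change was 0.68 (SE 0.28) with adjusted p = 0.173 by edgeR. Rpl39 had 0.64 (SE 0.32, adjusted p = 0.249) and Rpl7 0.63 (SE 0.40, adjusted p = 0.384). Farthest below were Rpl18 at -0.82 (SE 0.30, adjusted p = 0.134), Rpl36 at -0.73 and Rpl28 at -0.65. Rpl18 stood at 798, 1028 and 844 CPM in ImC and at 559, 618 and 337 in MatC, without overlap. Across 78 members the fold change of MatC over ImC had a correlation of -0.63 with the GC content of the coding sequence. This is a description of genes measured in the same 6 libraries. Deviations of single libraries from the others of their group also correlated with GC content, from -0.57 (ImC replicate 1) to 0.42 (MatC replicate 2). The part of GC content in these values was not tested.

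Most members had a somewhat higher level in Bone than in either cartilage group, but few of these differences passed the test. Against MatC the median member log2 fold change was 0.39, with 66 of 79 positive (83.5%), beside a median of -0.30 over all genes, of which 34.7% were positive. Against ImC the median was again 0.39, with 62 of 79 positive, beside -0.27 over all genes. With libraries scaled to the summed members the medians were 0.07 and 0.14, with 47 and 48 members positive. These comparisons share the Bone libraries and are not independent of each other. The small subunit had medians of 0.51 and 0.63, and the large subunit 0.31 and 0.26, against MatC and ImC respectively.

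In both comparisons most single members stayed under the threshold of the test. Over MatC, edgeR called 0 members higher, where 0.799% of all genes were called, and 15 were higher at an unadjusted p under 0.05, as were 605 of the 14268 genes; it called 1 lower, Rpl39l, where 7.64% were called. Over ImC it called 6 higher (7.59%, below the 10.8% of all genes), Rpl39, Rps27, Rpl27a, Rpl23, Rpl7 and Rps12, and 1 lower, Rpsa (1.27%, against 21.9%). With Rps12, the sixth by size, the list goes 1 beyond the naming rule and was completed after its values were seen. The counts depended on scaling: with TMM factors, which equalise the bulk of genes, 10 members were called higher over MatC (12.7%, against 1.49% of all genes) and 23 over ImC (29.1%, against 14.2%). With DESeq2's size factors and test the numbers were 28 (35.4%, against 4.77%) and 40 (50.6%, against 19.0%). Without Bone replicate 2, the highest of its group for 63 of 79 members, 0 were higher over MatC and 1 over ImC, and the medians were 0.29 and 0.28. Of all genes, 0.0463% and 6.13% were then called higher. Leaving out another Bone library lost calls alike. Without replicate 1, 0 and 2 members were higher, beside 0.0929% and 6.78% of all genes, with medians of 0.43 and 0.43. Without replicate 3, 0 and 1 were higher, beside 0.0798% and 5.95%, with medians of 0.44 and 0.43.

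**Figure D3:**
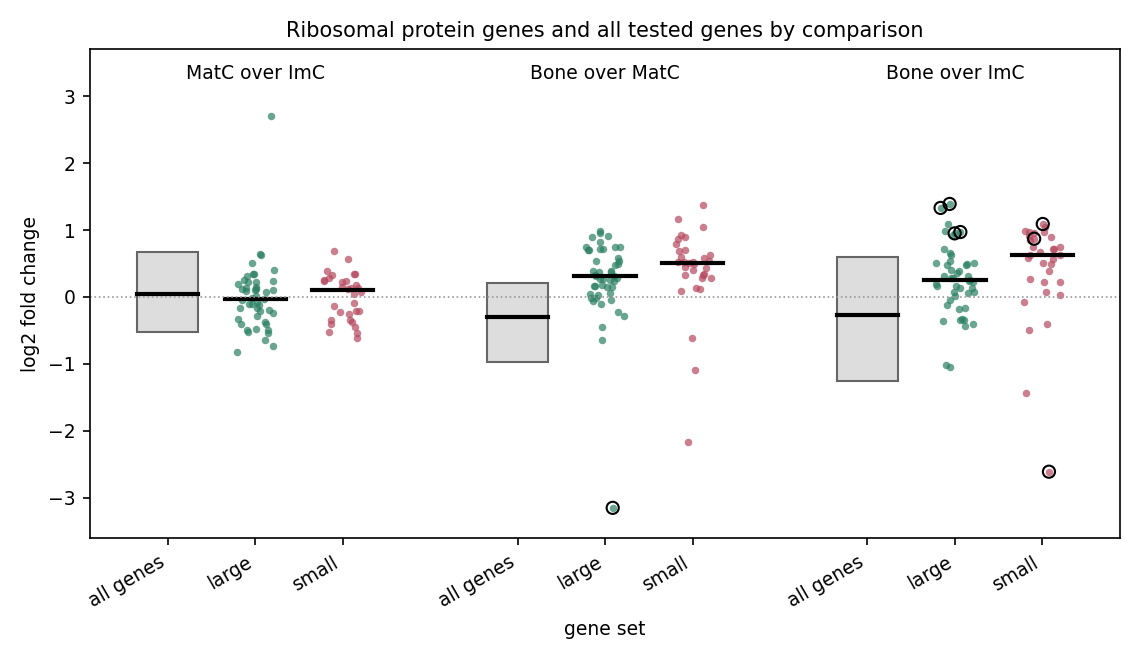
Log2 fold change of each tested large subunit (green) and small subunit (red) gene in the 3 comparisons; horizontal bars are medians, grey boxes span the quartiles of all 14268 tested genes, and black rings mark members with an adjusted p under 0.05. Member medians lie near 0 for MatC over ImC and above the all-gene medians of -0.30 and -0.27 in the Bone comparisons.

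The member median exceeded the all-gene median by 0.68 for Bone over MatC and by 0.66 for Bone over ImC. Over the 19 alternative settings that distance ranged from 0.56 to 0.79 and from 0.56 to 0.76, and for MatC over ImC from -0.10 to 0.08. Settings that only rescale the libraries move all genes alike and leave this distance nearly fixed by construction, so they are no check of it.

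The same was read from single libraries. For 38 members (48.1%) all Bone libraries lay above all MatC libraries, against 10.1% of all genes, and for 2 (2.53%, against 26.7%), Rpl39l and Rpsa, below. Over ImC this held for 40 members (50.6%, against 23.1%), with 4 (5.06%, against 35.4%) below, among them Rpsa, Rpl24 and Rpl36. Taking both cartilage groups at once, 28 members (35.4%) had all 3 Bone libraries above all 6 cartilage libraries, where 7.84% of all genes did, and 1, Rpsa, had them below, where 19.4% did. The 28 were 16 of 32 small and 12 of 47 large subunit genes. With TMM factors the 28 became 47 beside 13.7% of all genes, and with libraries scaled to the summed members themselves 7 beside 3.71%. In that scaling 8 members (10.1%) had all Bone libraries below all cartilage libraries, beside 26% of all genes.

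Among the members called higher in Bone over ImC, Rpl39 changed most. Rpl39 (chromosome X, 37082520 to 37085402, minus strand) was at 803, 705 and 472 CPM in ImC, 1223, 952 and 916 in MatC and 1349, 2059 and 1788 in Bone. The 3 groups did not overlap. Bone exceeded ImC 2.62-fold (log2 1.39, SE 0.32, adjusted p = 0.00959 by edgeR) and MatC 1.68-fold (adjusted p = 0.168). The call over ImC held in 18 of the 19 other settings and was lost only with library size over all genes (adjusted p = 0.0546).

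Rps27 followed the same order, with 297, 444 and 373 CPM in Bone, of which the lowest fell within the range of MatC. It was 2.13-fold higher than in ImC (log2 1.09, SE 0.28, adjusted p = 0.0153), a call kept in 16 of 19 settings and lost without Bone replicate 2 (adjusted p = 0.0738), without Bone replicate 3 and with library size over all genes. Rpl7, a large subunit protein, was at 1454, 1506 and 661 CPM in ImC, 2721, 1535 and 1334 in MatC and 3002, 2818 and 3309 in Bone. Its 2.52-fold difference from ImC (log2 1.33, SE 0.41, adjusted p = 0.0305) was lost when any Bone library, ImC replicate 1 or ImC replicate 3 was left out, with library size over all genes and with libraries scaled to the members.

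Rpl27a, the gene of the sooty foot ataxia mouse (chromosome 7, 109519147 to 109522367, plus strand), was at 1118, 1101 and 905 CPM in ImC, 1158, 1201 and 1066 in MatC and 1883, 2355 and 1792 in Bone. Cartilage libraries were close together and Bone stood clear of them. The log2 fold change was 0.95 (SE 0.27, adjusted p = 0.0237) over ImC and 0.82 (SE 0.27, adjusted p = 0.0903) over MatC. Rpl23, whose protein can bind Mdm2, was at 2077, 2259 and 1468 CPM in ImC, 2397, 2179 and 2169.5 in MatC and 3701, 3738 and 3894 in Bone, with log2 fold changes of 0.97 (SE 0.29, adjusted p = 0.0300) over ImC and 0.75 over MatC. Rps12 was at 2288, 2029.6 and 2042 CPM in ImC, 2596, 2508 and 3003 in MatC and 3690.3, 4167 and 3758 in Bone, with its groups in that order without overlap. Leaving out ImC replicate 1 or any Bone library ended the calls of Rpl27a, Rpl23 and Rps12 over ImC, leaving out ImC replicate 3 those of Rpl23 and Rps12, and leaving out ImC replicate 2 that of Rps12. These 3 calls were also lost with library size over all genes, with libraries scaled to the members and with no low count filter, and those of Rpl23 and Rps12 with the replicate block.

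Several small subunit genes had larger differences from MatC than these without passing the test. Rps16 was at 501, 614 and 211 CPM in MatC and at 1271, 1144 and 1026 in Bone (log2 1.38, SE 0.44, adjusted p = 0.0802). Rps26, which lies at the exit of the messenger RNA channel and is mutated in some patients with Diamond-Blackfan anaemia, was at 863, 749 and 515 CPM in MatC and 1564, 1692 and 1541 in Bone. Its log2 fold change was 1.17 (SE 0.36, adjusted p = 0.0702), and its call appeared in 6 of 19 settings. For Rps28 it was 1.04 (SE 0.33, adjusted p = 0.0819).

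The stalk of the large subunit, which recruits elongation factors, is made of the proteins of Rplp0, Rplp1 and Rplp2. Rplp0 was at 1819, 2388 and 1839 CPM in ImC, 1576, 1604 and 1079.8 in MatC and 2934, 2996 and 2526 in Bone. Bone lay above all cartilage libraries and MatC below all ImC libraries, with log2 fold changes of 0.99 (SE 0.30, adjusted p = 0.0697) over MatC and -0.50 (SE 0.30, adjusted p = 0.342) for MatC over ImC. Rplp2 had like fold changes in these comparisons, 0.72 (adjusted p = 0.165) and -0.48 (adjusted p = 0.367) by edgeR. Unlike for Rplp0, its Bone libraries overlapped those of ImC (log2 0.24). Rplp1 differed less, at 3016 ± 528 CPM in ImC, 3286 ± 399.6 in MatC, then 3956 ± 175 in Bone.

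Rpl5 and Rpl11 form a particle with 5S ribosomal RNA that also binds Mdm2. Rpl5 was at 2711 ± 313 CPM in ImC, 3437 ± 953 in MatC, then 3902 ± 267 in Bone. Rpl11 was at 2081 ± 363, 2008 ± 325 and 2521 ± 125 CPM. Neither passed edgeR's test in any comparison, although all Bone libraries exceeded all cartilage libraries for Rpl11. Rps6, the substrate of S6 kinase, was at 1045, 1077 and 1074 CPM in Bone against 736, 791 and 481 in ImC and 1027, 690.1 and 649.7 in MatC (log2 0.67, SE 0.31, adjusted p = 0.118 over ImC).

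Members with a skeletal phenotype gave no common direction. Rpl38 was at 555, 573 and 1051 CPM in ImC, 473, 554 and 627 in MatC and 723, 957 and 727 in Bone, so that its Bone libraries exceeded MatC but overlapped ImC. Rpl13 was at 1272 ± 196 CPM in ImC, 886 ± 130.4 in MatC, then 1000.4 ± 143 in Bone, with the MatC libraries below all of ImC (log2 -0.52, SE 0.28, adjusted p = 0.290). Rpl24, at the low level given above, had log2 -1.04 (SE 0.41, adjusted p = 0.0743) for Bone over ImC.

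The genes of the dark skin mice and of Diamond-Blackfan anaemia were also mixed. Rps19 was at 2871 ± 1011 CPM in ImC, 1978 ± 132 in MatC, then 2182 ± 404 in Bone, and Rps20 at 1183 ± 36.5, 1311 ± 51.5 and 1424 ± 275. Rps7 was at 1464 ± 336, 1726 ± 442 and 2467 ± 382 CPM, with adjusted p = 0.100 for Bone over ImC. Rps24 went the other way, at 1245 ± 237, 1351 ± 713 and 888 ± 323 CPM, with a log2 fold change of -0.61 (adjusted p = 0.404) for Bone over MatC. Rpl22, needed for T cell development, hardly varied, at 526 ± 136, 552 ± 151 and 513 ± 59.7 CPM.

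Rpsa was the member that went most clearly against the others. It encodes a small subunit protein also described as a laminin receptor (chromosome 9, 120127689 to 120132369, plus strand). It was at 6501, 3726 and 20601 CPM in ImC, 2886, 7199 and 12533 in MatC and 1569.5, 1949 and 1522 in Bone. All cartilage libraries exceeded all Bone libraries, and the cartilage groups overlapped widely. Bone was 6.12-fold lower than ImC (log2 -2.61, SE 0.70, adjusted p = 0.0176 by edgeR) and 4.49-fold lower than MatC (log2 -2.17, SE 0.69, adjusted p = 0.0786).

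Within each cartilage group the Rpsa level had the order of the mitochondrial share. That share was 45.3, 32.0 and 55.0% in ImC and 33.7, 69.1 and 82.3% in MatC, against under 9% in Bone, where the order did not match. The part of this share in the Rpsa difference was not tested. The Rpsa call over ImC was kept in 15 of 19 settings and lost when any 1 Bone library was left out (highest adjusted p = 0.0692) or with library size over all genes; the log2 fold change ranged from -3.01 to -1.61. Rpsa has 98.8% of its coding windows in other genes' transcripts.

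Rps15 had the same library pattern at a lower level, with 1445, 1063 and 3838 CPM in ImC, 828, 1339.8 and 2847 in MatC and 638, 1092 and 632 in Bone. Its log2 fold change for Bone over ImC was -1.43 (SE 0.58, adjusted p = 0.0829), and the groups overlapped. Rpl36 was at 493, 456 and 1053 CPM in ImC and 309, 407 and 277 in Bone (log2 -1.01, SE 0.39, adjusted p = 0.0701), without overlap. In ImC replicate 3, Rpsa, Rps15 and Rpl36 were more than 2-fold above the other libraries of the group, and Rps27l, Rpl15, Rps3, Rpl7a, Rpl7 and Rps16 more than 2-fold below. In MatC replicate 3, Rpsa, Rps15 and Rps24 were above and Rpl39l, Rps16, Rpl7a and Rps2 below. Without both libraries, 4 members were called higher in Bone over MatC (5.06%, against 2.11% of all genes) and 11 over ImC (13.9%, against 14.4%).

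**Figure D4:**
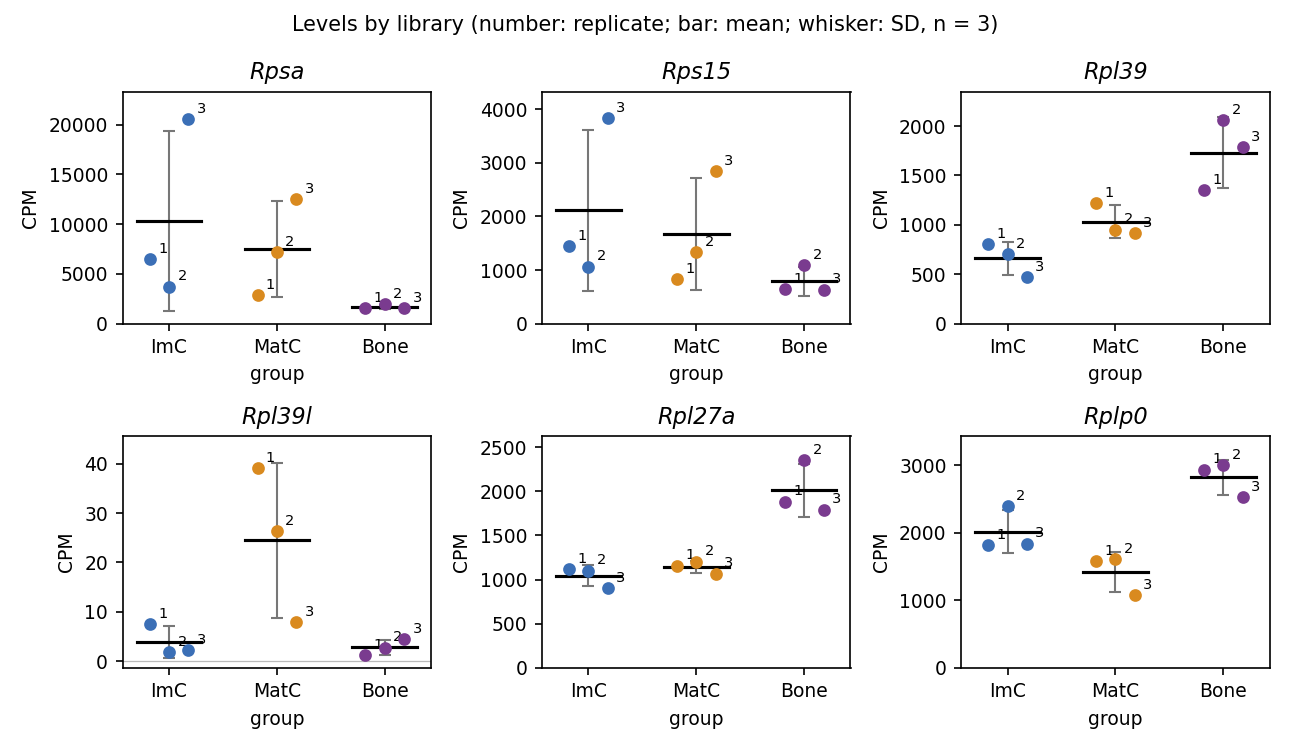
CPM of 6 members in each library, with replicate numbers, the group mean (bar) and the SD (whisker, n = 3) on linear axes. Rpsa and Rps15 are high in replicate 3 of both cartilage groups and low in Bone, Rpl39, Rpl27a and Rplp0 are highest in Bone, and Rpl39l is highest in MatC.

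Paralogs among the members were compared with their partners. Rpl39l, a single-exon copy of Rpl39 best known from male germ cells (chromosome 16, 10170226 to 10174911, plus strand), was at 7.55, 1.80 and 2.15 CPM in ImC, 39.2, 26.4 and 7.88 in MatC and 1.23, 2.72 and 4.39 in Bone. All MatC libraries exceeded all others, although the lowest was close to the highest of ImC. None of its coding windows occur in another gene. Bone was 8.87-fold lower than MatC (log2 -3.15, SE 0.78, adjusted p = 0.0355 by edgeR), and MatC was 6.56-fold higher than ImC, which did not pass (log2 2.71, SE 0.77, adjusted p = 0.0610). Without ImC replicate 1 that log2 fold change was 3.64, still not called, and 5 of the 19 settings called it, among them the one without MatC replicate 3. The call for Bone over MatC was kept in 11 of 19 settings. It was lost without MatC replicate 1, without MatC replicate 2, without any 1 Bone library, with the authors' factors, with the replicate block and with library size over all genes, where its adjusted p was highest at 0.182.

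As a share of Rpl39 reads, Rpl39l made up 3.21, 2.78 and 0.860% in MatC, 0.255 to 0.941% in ImC and 0.0916 to 0.246% in Bone, so it remained a minor form in all libraries. Rps27l, a paralog of Rps27 induced by p53, was a larger fraction of its partner, at 24.7 to 66.7% in ImC, 40.7 to 61.2% in MatC and 42.5 to 51.3% in Bone. Other genes share 100% of the coding windows of Rps27 and 48.3% of those of Rps27l. The part of this in the ratio was not tested. Rps27l was at 171 ± 18.2 CPM in Bone and 92.8 ± 48.9 in ImC (log2 0.89, SE 0.43, adjusted p = 0.138). Rpl3l, the striated muscle form of Rpl3, had 0 reads in every cartilage library and 0, 1 and 3 in Bone, beside 1192 ± 56.7 CPM of Rpl3 there. Rpl10l, the testis copy of the X-linked Rpl10, had 0 reads in all libraries, which allows up to 0.265 to 1.58 CPM by counting error alone. Rpl10 itself was at 1073, 1369 and 722 CPM in ImC, 1583, 1179 and 937 in MatC and 1762, 2364 and 2105 in Bone (log2 0.98, SE 0.34, adjusted p = 0.0501 over ImC). Rps4x, also X-linked, was at 2270.0 ± 290.5, 2490.3 ± 574 and 3522 ± 171 CPM.

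Members with and without a run of at least 6 bases at the annotated start were then set side by side. The split depends on where the annotation puts the first base. Rpl35a, for example, had a run of 13 bases at 1 entry and 3 at another, and the longest run of a gene was used. A member without a run here may still have a TOP start elsewhere, which was not tested. For Bone over MatC the median log2 fold change was 0.52 over the 28 tested members with a run and 0.26 over the 30 without. For Bone over ImC the medians were 0.48 and 0.29, and for MatC over ImC -0.12 and 0.04. The quartiles overlapped in each comparison (0.32 to 0.76 against 0.00 to 0.64 for Bone over MatC), and no test was made.

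Genes outside the symbol rule that also make or serve ribosomes were read from the same fit. Of 7 further ribosomal protein genes, Rps3a1 and Rpl22l1 were higher in Bone than in ImC (log2 1.06, adjusted p = 0.0372, and 1.28, adjusted p = 0.0365 by edgeR) and 2 were lower. Of all genes, 10.8% were called higher and 21.9% lower. Over the 19 other settings 0 to 4 of the 7 were higher and 0 to 2 lower. Without any 1 Bone library, or with library size over all genes, 0 were called in either direction. None of the 7 was called in the other comparisons. Fau, which encodes a ubiquitin-like protein fused to a small subunit protein, was at 948 ± 172 CPM in Bone and 1309.8 ± 491 in ImC.

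Ribosome biogenesis genes had medians below 0 in Bone, although most were not called. Of 38 genes for ribosomal RNA synthesis, processing and subunit assembly, 14 were lower and 0 higher in Bone than in ImC, where 21.9% of all genes were called lower (median log2 fold change -0.76, beside -0.27 over all genes). In Bone over MatC, 5 were lower and 0 higher, where 7.64% of all genes were called lower (median -0.42, beside -0.30). Nop56, a core protein of box C/D small nucleolar ribonucleoproteins, was at 183 ± 1.88 CPM in Bone and 879.7 ± 212 in ImC (log2 -2.26, SE 0.35, adjusted p = 0.00160). Tcof1, whose product treacle supports transcription of ribosomal RNA, was at 46.3 ± 7.64 and 429 ± 258 CPM (log2 -3.21, SE 0.59, adjusted p = 0.00351), and Nolc1 had log2 -2.08 (adjusted p = 0.00420). For Bone over MatC, Ltv1, an assembly factor of the small subunit, had log2 -2.34 (adjusted p = 0.00545), and Tcof1 and Nop58 also fell. Between MatC and ImC 0 of the 38 were called.

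The number of biogenesis genes lower in Bone than in ImC was 2 to 21 over the 19 other settings, and 21 without replicate 3 of both cartilage groups. It was 8 without Bone replicate 2 or 3, and 2 with library size over all genes, where the median was -0.04. For Bone over MatC that setting turned the median to 0.85 with 0 called, and leaving out any 1 Bone library left 1 called. Cell cycle markers (7 genes) moved with this list, summing to 987 to 2011 CPM in ImC, 579 to 752 in MatC and 220.0 to 357 in Bone. Their part in these values was not tested.

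Of 33 genes for translation factors and their partners, 1 was higher and 1 lower in Bone than in ImC, Tpt1 (log2 1.18, adjusted p = 0.0216) and Eef1d (log2 -1.02, adjusted p = 0.0474), with a median of 0.00 beside -0.27 over all genes. With TMM factors 4 were higher and 0 lower, and with DESeq2 10 and 0. Over all genes 10.8% were called higher and 21.9% lower in the main fit. These shares were 14.2% and 17.1% with TMM factors, and 19.0% and 20.6% with DESeq2. The summed level of the 33 genes was 26422 to 27377 CPM in Bone, above all ImC (14495 to 22398) and MatC libraries (19737 to 23298). Of 74 tested mitochondrial ribosomal protein genes, encoded in the nucleus, 3 were higher and 3 lower, with a median of 0.24. This balance held for the scaling used here: 10 were higher and 2 lower with TMM factors, 12 and 1 with the authors' factors, and 21 and 2 with DESeq2. Those of smallest p were Mrpl19 (log2 -1.32, adjusted p = 0.00847), Mrps5 (log2 -1.18, adjusted p = 0.0155) and Mrps21 (log2 0.87, adjusted p = 0.0242). Of 20 genes of growth control, 3 were higher and 4 lower, and over the 19 other settings 1 to 3 were higher and 0 to 7 lower. Rps6kb1, an S6 kinase that phosphorylates the protein of Rps6, was higher than in ImC in both MatC (log2 1.47, SE 0.26, adjusted p = 0.0130) and Bone (log2 1.22, SE 0.26, adjusted p = 0.00707). Eif4ebp1, the mTOR-regulated inhibitor of cap binding, was higher in Bone than in ImC (log2 1.12, adjusted p = 0.0119).

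**Figure D5:**
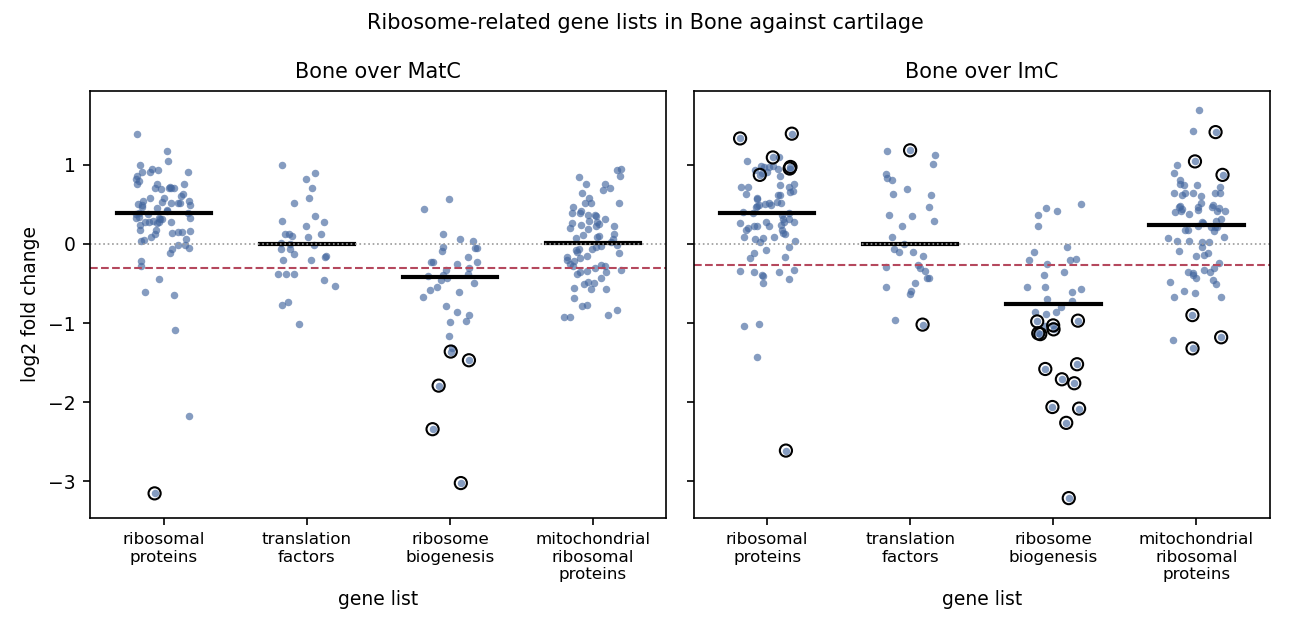
Log2 fold changes of the ribosomal protein genes and of 3 further lists in Bone over MatC (left) and Bone over ImC (right); bars are list medians, the dashed line is the median of all tested genes, and black rings mark an adjusted p under 0.05. Ribosomal proteins have a median of 0.39 on both sides, and ribosome biogenesis genes -0.42 and -0.76.

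Markers of other cell types moved with the groups as well. Endothelial markers (5 genes) summed to 1.42 to 17.4 CPM in ImC, 20.5 to 319.9 in MatC and 47.2 to 162 in Bone. Macrophage and leukocyte markers (6 genes) summed to 5.37 to 8.97, 9.98 to 100 and 45.5 to 113 CPM, with C1qa and C1qb at 0 in ImC. Osteoclast markers (5 genes) summed to 10.4 to 15.4, 60.4 to 1117 and 762 to 1636 CPM, with Dcstamp at 0 in ImC. Erythroid markers (6 genes) summed to 19.6 to 2526, 1622 to 6936 and 10237 to 15002 CPM. Skeletal muscle markers summed to 15.3 to 37.8, 37.7 to 467 and 3.68 to 111 CPM. The part of these cells in the higher ribosomal protein share of Bone was not tested, since the tissue and the cells it holds were sampled together.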

How the data were processed

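The build mm10 and the tools HTSeq, edgeR, Bowtie2, TopHat2 and Trimmomatic 0.30 are listed, per the submitters' processing notes; which tool did which step is not given in the sources used here. Raw counts were deposited by the authors per gene symbol for 43472 genes. Their second deposited table holds normalized values as whole numbers, treated as a score and used only to read back 1 scaling factor per library. Whether counting used strand is not stated there either, so overlapping genes may share reads.

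Counts were tested with edgeR 4.0.16 (quasi-likelihood, R 4.3.3) over the 14268 genes kept by filterByExpr (minimum count 10). Library size was the sum over genes outside the mitochondrial genome, without a further factor, and all 9 libraries entered 1 fit. SE was taken as the size of the log2 fold change divided by the square root of the F statistic. DESeq2 1.42.0, limma 3.58.1 and other scalings were alternatives. The procedure was tested on simulated counts. Coding lengths and positions are from GENCODE M21 (GRCm38), which held 80 of 81 symbols (not Rps4l).

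Members named are the 5 largest called changes per comparison and direction, the 3 farthest above and below the member median among those averaging at least 20 CPM, a set with stalk, signalling or phenotype roles, paralog pairs, and the 3 highest and lowest per length; up to 3 called genes of smallest p were named per other list. Members and lists were chosen with earlier results of these data known. A few genes are not reported here.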

Additional observations from a re-analysis of the deposited data

How the results depend on the processing

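Depth limited MatC replicate 3 most, at 1904092 counts, where a count of 0 allows up to 1.58 CPM. The number of calls moved with scaling and with single libraries; leaving a library out also removes residual degrees of freedom, and the cause of the changes was not tested.

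The member median of MatC over ImC was -0.05 with TMM factors, -0.02 with DESeq2, -0.58 with library size over all genes, -0.03 with the authors' factors and -0.07 without replicate 3 of both cartilage groups; leaving out 1 library gave -0.03 to 0.07. DESeq2 called 1 member higher and 1 lower (1.27% each, beside 9.61% and 5.93% of all genes). There was 1 higher with no low count filter, with limma-voom and without replicate 3 of both groups. Beside these, 4.86%, 4.51% and 9.03% of all genes were called higher. When 1 library was left out 0 to 1 were higher, beside 1.73 to 6.26% of all genes.

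For Bone over MatC the median was 0.65 with TMM factors, 0.65 with DESeq2, 1.63 with library size over all genes, 0.71 with the authors' factors and 0.07 with libraries scaled to the members. Members higher numbered 10 with TMM factors, 28 with DESeq2, 11 with the authors' factors, 1 with no low count filter, with limma-voom or with only the 2 groups in the fit, and 4 without replicate 3 of both groups. Members lower numbered 2 with DESeq2, with libraries scaled to the members, with no filter, with only the 2 groups and without replicate 3 of both groups, and 0 with library size over all genes or the authors' factors. Leaving out 1 library gave 0 to 7 higher and 0 to 2 lower, beside 0.0463 to 2.01% and 1.44 to 12.7% of all genes.

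For Bone over ImC the median was 0.61 with TMM factors, 0.64 with DESeq2, 1.11 with library size over all genes, 0.69 with the authors' factors and 0.14 with libraries scaled to the members. Members higher numbered 23, 40, 0, 27 and 2 in that order, 3 with no filter, 15 with limma-voom, 10 with only the 2 groups and 11 without replicate 3 of both cartilage groups. Members lower numbered 0 with library size over all genes, 4 with libraries scaled to the members and 2 with no filter. Leaving out 1 library gave 1 to 11 higher and 0 to 4 lower, beside 5.95 to 12.7% and 9.94 to 24.9% of all genes.

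With mitochondrial genes included the summed share was 5.90% in ImC, 3.84% in MatC and 11.6% in Bone, and 8.84%, 8.67% and 11.6% of non-mitochondrial counts without the 3 members of highest count. Adding the rows with a pseudogene suffix changed no share beyond its SD. Copies under other symbols were not added.

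Same-numbered libraries did not deviate together throughout (correlations of 0.268, -0.0658 and 0.278 between ImC and MatC), so the numbers were not taken to pair the libraries. With the replicate block the median of MatC over ImC was -0.02 with 0 calls, beside 3.48% of all genes higher and 1.09% lower. Over MatC, Bone then had 1 member higher and 0 lower, beside 0.799% and 6.24% of all genes. Over ImC it had 6 higher and 1 lower, the same numbers as without the block, beside 11.0% and 18.5%. Of the single genes named, 95 values passed the threshold only under an alternative and 39 failed it only there.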
